A study of Homo sapiens with 2 samples.

Results

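A set of 10 genes of heme breakdown, iron storage and the NRF2 antioxidant response was followed in single-cell RNA-seq of 2 libraries. The genes were HMOX1, FTH1, FTL, NQO1, GCLM, TXNRD1, SRXN1, SLC7A11, TFRC and NFE2L2, chosen by name after results of these libraries were known, so their levels are given as a description. All 10 were among the 36601 genes of the matrices, and all 10 were among the 12128 genes with 50 or more UMIs (tags that each mark 1 captured RNA molecule) over both libraries. The control library came from untreated cells and the SP11 library from cells given 0.8 µM SP11, and the cells of both were collected at 48 h. The labels name the cells MOLT4, which is a long-established T-cell leukemia line, and the study presents SP11 as an HSP90 inhibitor, HSP90 being a chaperone for many signalling proteins. Each group had 1 library of 1 cell line, so there was no replicate check, no test was run, and every difference compares these libraries rather than the conditions.

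NRF2, the transcription factor encoded by NFE2L2, is held at a low level by KEAP1, which marks it for degradation, and when KEAP1 is modified by reactive molecules NRF2 persists and binds antioxidant response elements near its target genes. HMOX1 opens the heme ring and releases iron, carbon monoxide and biliverdin, and its promoter is also held by the heme-sensing repressor BACH1. Free iron is stored inside ferritin, a shell of heavy chains (FTH1) that oxidise iron and light chains (FTL) that help it to mineralise, while TFRC, the transferrin receptor, brings iron into the cell. Ferritin and TFRC are also controlled after transcription, through an RNA hairpin called the iron responsive element, which iron regulatory proteins bind when iron is scarce.

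After the filters described in the methods, the control library held 1053 cells with 19375163 UMIs and the SP11 library 852 cells with 9498802 UMIs. The median was 17711 UMIs per control cell and 10489 per SP11 cell, so shares of cells with a UMI were taken after each cell had been thinned to 4400 UMIs, which left 963 control and 769 SP11 cells. The labelled cell type was checked against marker genes. Of 30 T-lineage markers, 16 were at 0 UMIs in control and 18 in SP11, none reached 10 CPM (UMIs of a gene per 1e6 UMIs of the library), and their summed level was 10.8 and 12.4 CPM. The summed level of 31 monocyte or macrophage markers was 1801 CPM in the control library, with 3164 CPM in the SP11 library, of which CTSD, a lysosomal protease, made up 1195 and 1618 CPM. Of those 31, 6 were at 0 in control and 5 in SP11, and 7 and 10 reached 10 CPM. Their members did not all differ in the same direction, with LYZ at 241 and 736 CPM but GPNMB at 139 and 110 CPM and MARCO at 22.2 and 6.74 CPM. The summed level of 11 neutrophil or granulocyte precursor markers was 2329 and 1061 CPM, with 1 at 0 in each library, and that of 15 erythroid markers was 6.30 and 5.16 CPM, with 9 and 13 at 0. The markers thus went against the T-lineage label in both libraries, and their part in the levels below was not tested. A further 114 barcodes were present in both libraries, 10.6% of those in control and 13.2% of those in SP11, and the main values are also given without them. No cells known to lack these genes were present in either library, so how many cells free RNA alone would mark was not measured.

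Of the 10 genes, 4 were at least 1.5-fold higher in the SP11 library and 0 were at least 1.5-fold lower, on the CPM scale. These were HMOX1, FTH1, NQO1 and NFE2L2. Of all measured genes, 10.7% reached this size in the direction of SP11 and 38.4% in the direction of control, and because the genes were chosen with these ratios known, nothing is read from the difference between those shares. The median measured gene had a log2 ratio of -0.35, so most genes had a lower share of the UMIs in SP11. Relative to that median gene 7 of the 10 were at least 1.5-fold higher, beside 22.5% of all measured genes, and 0 were at least 1.5-fold lower, beside 24.3%. The genes nearest to the limit of 1.5-fold were NFE2L2, just inside it at 1.52-fold, and FTL, just outside it at 1.48-fold.

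**Figure D1:**
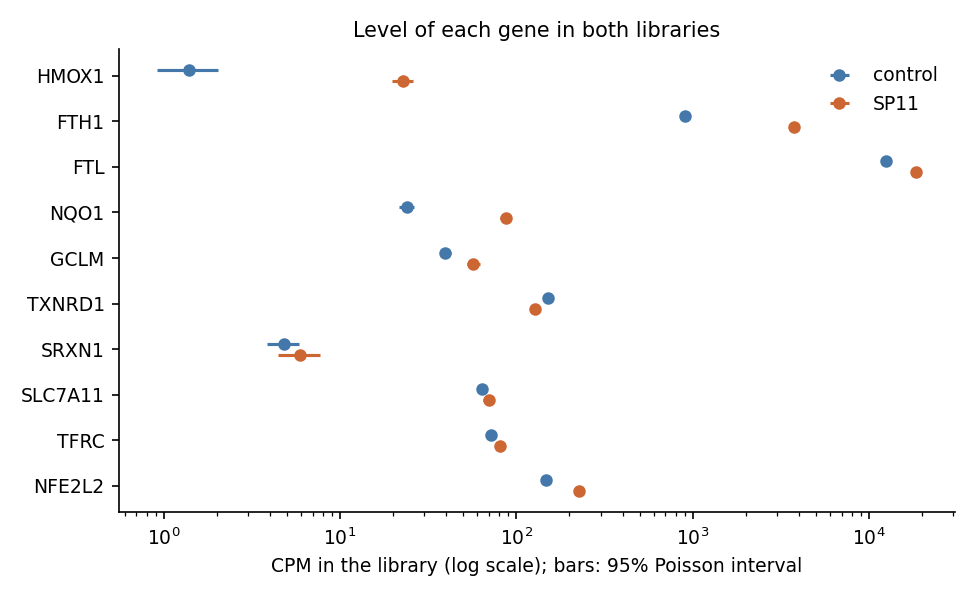
Level of each of the 10 genes in the control library and in the SP11 library, in CPM on a log axis, with bars for the 95% Poisson interval, which covers counting error only. HMOX1 sat at 1.39 CPM in control against 22.7 CPM in SP11, FTH1 at 902 and 3749 CPM, and TXNRD1 was the gene with the lower value in SP11.

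HMOX1, the inducible heme oxygenase (ENSG00000100292, chr22:35380361-35394214, plus strand), had 27 UMIs in the control library and 216 in the SP11 library. Its level was 1.39 CPM (95% interval 0.918 to 2.03) in control and 22.7 CPM (19.8 to 26.0) in SP11, and these intervals, like the others given here, cover counting error only. The SP11 library was thus 16.3-fold higher, and 0.0247% of the measured genes had a higher ratio. Without the shared barcodes the log2 ratio moved from 4.03 to 4.00. HMOX1 was a rare transcript in both libraries, and most cells of each carried no UMI of it.

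At 4400 UMIs per cell, 6 of 963 control cells carried an HMOX1 UMI (0.623%, 0.229 to 1.35) and 44 of 769 SP11 cells did (5.72%, 4.19 to 7.61). At full depth the shares were 2.37% of control cells and 10.9% of SP11 cells. All 6 control cells had 1 thinned UMI. In SP11 34 cells had 1, 8 cells had 2 to 4, and 2 cells had 5 or more, up to a maximum of 9. The variance of the thinned UMIs was 3.18 times their mean in SP11. In control it was 0.995 times the mean, a value fixed by 6 cells with 1 UMI each. The spread could therefore not be compared between the libraries. The SP11 cell with the most HMOX1 held 28 UMIs at full depth, 13.0% of all HMOX1 UMIs of its library. The control cell with the most held 3, or 11.1%. The log2 ratio stayed positive under every alternative tried.

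FTH1, the ferritin heavy chain (ENSG00000167996, chr11:61959718-61967634, minus strand), had 17477 UMIs in control and 35608 in SP11, although the SP11 library held fewer UMIs in total. Its level was 902 CPM (889 to 916) in control and 3749 CPM (3710 to 3788) in SP11. That is 4.16-fold higher in the SP11 library, and 0.305% of the measured genes had a higher ratio. FTL, the light chain (ENSG00000087086, chr19:48965309-48966879, plus strand), was at 12501 CPM (12452 to 12551) in control and 18548 CPM (18462 to 18635) in SP11. Its log2 ratio was 0.57 (0.56 to 0.58), well under the 2.06 (2.03 to 2.08) of FTH1. Both ferritin genes have many processed pseudogenes in the genome, and reads that match a pseudogene as well could be split or dropped in counting, so their counts are uncertain to that extent.

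The cells of each library overlapped in FTH1 but were shifted. The median SP11 cell had 8 thinned FTH1 UMIs (quartiles 4 and 17) and the median control cell 2 (quartiles 1 and 4). In SP11 44.2% of cells lay above 9 UMIs, the 95th percentile of the control cells, against 4.88% of the control cells themselves. FTL shifted less, from a median of 53 (quartiles 42 and 67.5) in control to 70 (quartiles 57 and 88) in SP11, with 20.7% of SP11 cells above the control 95th percentile of 95 UMIs. Both libraries had a long upper tail. At full depth the 10% of cells highest in FTH1 held 50.4% of the FTH1 UMIs in control and 51.3% in SP11. A single control cell with 777 UMIs held 4.45% of the FTH1 of its library. Without the cell highest in FTH1 in each library the log2 ratio was 2.09.

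The heavy chain also took a larger part of the ferritin transcripts. FTH1 made up 6.73% (6.63 to 6.83) of the summed FTH1 and FTL UMIs in control and 16.8% (16.65 to 16.97) in SP11, while ferritin as a whole went from 1.34% to 2.23% of all UMIs. These shares are compared between libraries and cells, and are not corrected for transcript length. In the median thinned cell the heavy-chain share was 4.17% in control (quartiles 2.08 and 6.67) and 10.6% in SP11 (quartiles 6.48 and 17.5). Of the SP11 cells, 668 of 769 (86.9%) lay above the control median and 295 (38.4%) above the control 95th percentile of 13.0%. The shift was therefore present in most SP11 cells and was not limited to the tail.

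**Figure D2:**
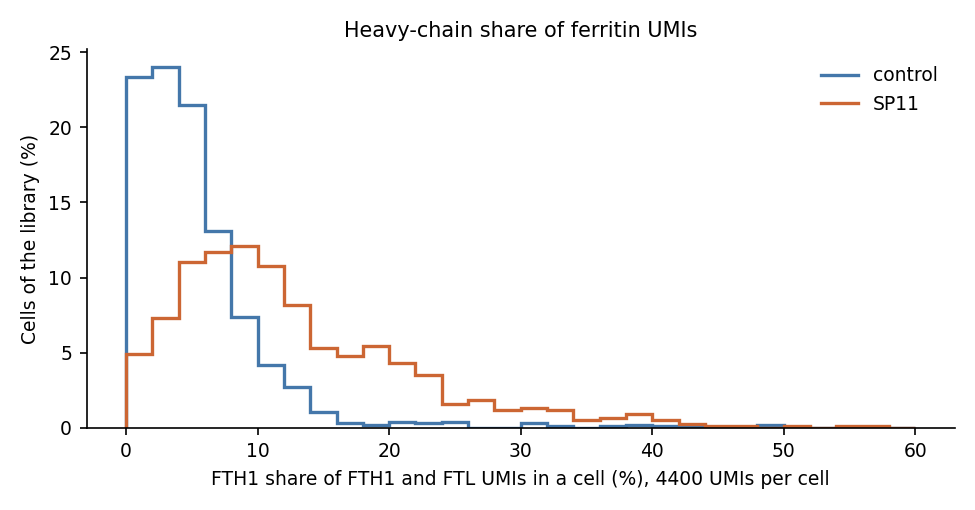
Distribution over cells of the FTH1 share of FTH1 and FTL UMIs (horizontal axis, percent, each cell thinned to 4400 UMIs) as a percentage of the cells of each library (vertical axis). The control cells centre at a median of 4.17% and the SP11 cells at 10.6%, with a wider upper tail in SP11.

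The hairpins that tie ferritin and TFRC to iron are shown here for reference, and their part in the ratios was not tested. They were searched in the MANE Select transcripts of GENCODE 44 on GRCh38, on the transcript strand only, as the loop CAGTGN (with any base but G in last place) on a stem of 5 paired bases above an unpaired C and at least 4 of 5 paired bases below it. Of 19061 MANE Select transcripts, 20 (0.105%) held such an element, and 1 of them held more than 1. By this rule FTH1 and FTL held 1 each in the 5′ UTR (exon 1), and TFRC held 4 in the 3′ UTR (exon 19). An element that departs from the rule would be missed, so these are not full counts. The loop is in capitals.
FTH1, 5′ UTR, chr11:61967574-61967602, minus strand: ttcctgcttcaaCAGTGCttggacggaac
FTL, 5′ UTR, chr19:48965335-48965363, plus strand: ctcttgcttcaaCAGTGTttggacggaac
TFRC, 3′ UTR, chr3:196050979-196051007, minus strand: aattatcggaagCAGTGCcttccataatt
TFRC, 3′ UTR, chr3:196050575-196050603, minus strand: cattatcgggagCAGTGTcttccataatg
TFRC, 3′ UTR, chr3:196050510-196050538, minus strand: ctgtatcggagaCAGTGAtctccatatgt
TFRC, 3′ UTR, chr3:196050463-196050491, minus strand: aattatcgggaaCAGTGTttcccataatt

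TFRC (ENSG00000072274, chr3:196012511-196082153, minus strand) had 1396 UMIs in control and 767 in SP11. Its level was 72.1 CPM (68.3 to 75.9) in control and 80.7 CPM (75.1 to 86.7) in SP11, a log2 ratio of 0.16 (0.04 to 0.29). At equal depth a TFRC UMI was found in 27.5% of the cells in control (24.7 to 30.5) and in 27.6% in SP11 (24.4 to 30.9). The transferrin receptor thus differed far less between the libraries than the ferritin heavy chain did.

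NQO1, a quinone reductase and a standard readout of NRF2 activity (ENSG00000181019, chr16:69706996-69726668, minus strand), had 462 UMIs in control and 824 in SP11. Its level was 23.8 CPM (21.7 to 26.1) in control and 86.7 CPM (80.9 to 92.9) in SP11, 3.64-fold higher, and 0.486% of the measured genes had a higher ratio. In control 9.24% of cells carried a UMI at equal depth (7.49 to 11.2) against 26.7% in SP11 (23.6 to 29.9), and at full depth 31.5% and 50.2%. In the SP11 library NQO1 was less concentrated in few cells than HMOX1. The variance of its thinned UMIs was 1.05 times the mean in control and 1.20 times in SP11, and the highest SP11 cell, with 19 UMIs, held 2.31% of the total. NQO1 without the shared barcodes had a log2 ratio of 1.95, against 1.86 with them.

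GCLM, the modifier subunit of the enzyme that starts glutathione synthesis (ENSG00000023909, chr1:93885199-93909456, minus strand), had 765 UMIs in control and 540 in SP11. It was at 39.5 CPM (36.7 to 42.4) in control and 56.8 CPM (52.2 to 61.9) in SP11, 1.44-fold higher. The share of thinned cells with a GCLM UMI was 15.99% (13.7 to 18.5) and 20.8% (18.0 to 23.8). SLC7A11, the cystine importer that feeds glutathione synthesis (ENSG00000151012, chr4:138164097-138242349, minus strand), had 1238 UMIs in control and 660 in SP11. SLC7A11 was at 63.9 CPM (60.4 to 67.6) in control and 69.5 CPM (64.3 to 74.99) in SP11, and its log2 ratio of 0.12 (-0.02 to 0.26) became -0.05 without SP11 cluster 5, which is described further on, -0.18 without the cells that carried an HMOX1 UMI, and -0.01 with a mitochondrial maximum of 10%.

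TXNRD1, the cytosolic thioredoxin reductase (ENSG00000198431, chr12:104215779-104350307, plus strand), had 2944 UMIs in control and 1216 in SP11. TXNRD1 was at 152 CPM (147 to 158) in control and 128 CPM (121 to 135) in SP11, a log2 ratio of -0.25 (-0.34 to -0.15) that turned to 0.10 with TMM factors, 0.12 with DESeq2 size factors and 0.45 after the trend with intronic length was subtracted. Thinned cells with a TXNRD1 UMI made up 50.3% of the control library (47.1 to 53.5) and 42.3% of the SP11 library (38.7 to 45.8). SRXN1, sulfiredoxin, which repairs over-oxidised peroxiredoxins (ENSG00000271303, chr20:646615-653200, minus strand), was counted at 93 UMIs in control and 56 in SP11. SRXN1 was at 4.80 CPM (3.87 to 5.88) and 5.90 CPM (4.45 to 7.66), and the interval of its log2 ratio of 0.30 ran from -0.21 to 0.79, so a difference was not detectable at this depth. Of the thinned cells, 2.49% in control (1.603 to 3.69) and 1.69% in SP11 (0.903 to 2.87) carried it. NFE2L2, which encodes NRF2 itself (ENSG00000116044, chr2:177218667-177392756, minus strand), had 2865 UMIs in control and 2137 in SP11. It was at 148 CPM (143 to 153) in control and 225 CPM (216 to 235) in SP11, 1.52-fold higher, and a UMI was found in 48.4% of the thinned cells of control (45.2 to 51.6) against 61.4% in SP11 (57.8 to 64.8). NRF2 is controlled mainly as a protein, which these counts do not measure.

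**Figure D3:**
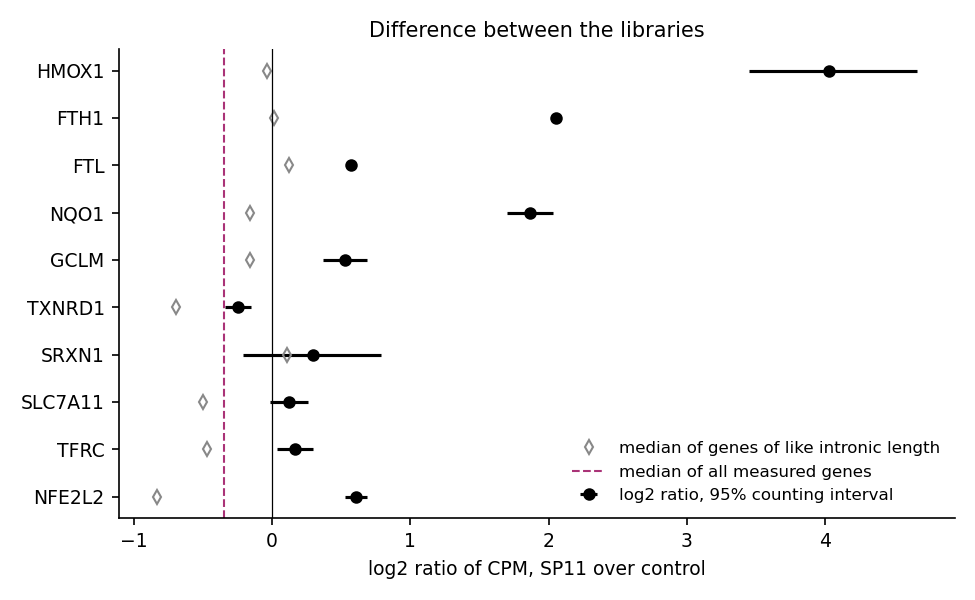
Log2 ratio of SP11 CPM to control CPM of each gene (points, with bars for the 95% counting interval), beside the median of all measured genes at -0.35 (dashed line) and the median of genes of like intronic length (open diamonds). HMOX1, FTH1 and NQO1 lie farthest to the right, and the diamonds of TXNRD1 and NFE2L2 lie at -0.69 and -0.83.

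Genes with long introns had lower ratios between these libraries, which bears on the order of the genes. The median log2 ratio of measured genes in the same bin of intronic length (20 bins) was -0.83 for NFE2L2, with 159115 intronic bases, and -0.69 for TXNRD1, with 127819. It was 0.02 for FTH1, with 5913 intronic bases, and -0.04 for HMOX1, with 11548. After that median was subtracted, HMOX1 was at 4.07, FTH1 at 2.04, NQO1 at 2.02, NFE2L2 at 1.44, GCLM at 0.69, TFRC at 0.63, SLC7A11 at 0.62, FTL at 0.45, TXNRD1 at 0.45 and SRXN1 at 0.19. The leading genes thus remained HMOX1, FTH1 and NQO1, and NFE2L2 stood next to them both before and after the subtraction. The intronic length of NFE2L2 rests on a GENCODE span that reaches chr2:177392756. Its RefSeq promoter windows, chr2:177264082-177264381 and chr2:177264678-177264977, lie inside that span, so the 1.44 depends on the annotation used.

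The NRF2 binding element was searched in the promoters as TGACNNNGC on either strand, in RefSeq windows of 250 bases before to 50 bases after the start site (GRCh38.p14). Windows were given for FTL, NQO1, GCLM, TXNRD1, SRXN1, TFRC and NFE2L2. GCLM had 1 match, TXNRD1 had 2 at one start site and 1 at another, and the windows of FTL, NQO1, SRXN1, TFRC and NFE2L2 had 0, which says only that these letters were not in those 300 bases. Of 35116 such promoters 13.3% held at least 1 match and 1.13% held 2 or more. The GCLM and TXNRD1 matches that lie before the start site are shown with their surroundings, the match in capitals, in the direction of the gene. A match to the opposite strand is printed as it reads along the gene.
GCLM, chr1:93909436-93909484, minus strand: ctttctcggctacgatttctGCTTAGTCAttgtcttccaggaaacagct
TXNRD1, first start site, chr12:104215660-104215708, plus strand: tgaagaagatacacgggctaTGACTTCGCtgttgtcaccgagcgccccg
TXNRD1, second start site, chr12:104286910-104286958, plus strand: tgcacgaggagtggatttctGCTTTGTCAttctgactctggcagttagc

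Joint detection of HMOX1 with ferritin was examined next. All 44 SP11 cells and all 6 control cells with a thinned HMOX1 UMI also carried FTH1 and FTL UMIs, but FTH1 was found in 98.8% of all thinned SP11 cells and 86.6% of control cells and FTL in 100% of both, so joint detection as such holds little information. Cells were therefore ordered by their summed FTH1 and FTL UMIs and divided into 4 equal parts. The 83 SP11 cells under 4400 UMIs were not among them. SP11 cluster 4, described further on, was high in ferritin but had a median of 1826 UMIs per cell, so it was largely left out. In SP11 the share of cells with an HMOX1 UMI was 0.518% (0.0131 to 2.85) in the lowest part, 2.60% (0.851 to 5.97) in the next, 5.73% (2.89 to 10.0) in the third and 14.1% (9.48 to 19.8) in the highest. The highest part held 54 of the 74 thinned HMOX1 UMIs (73.0%). Its cells had a median of 12221 UMIs before thinning, against 10630 to 10999 in the other parts.

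**Figure D4:**
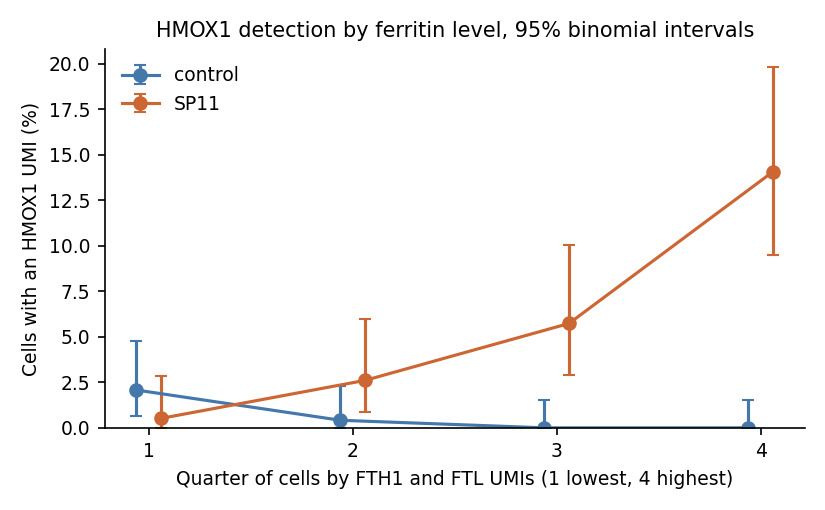
Percentage of cells with an HMOX1 UMI (vertical axis, with exact 95% binomial intervals) in 4 equal parts of the cells of each library, ordered by summed FTH1 and FTL UMIs from lowest (1) to highest (4), each cell thinned to 4400 UMIs. In SP11 the share runs from 0.518% to 14.1%, and in control the 6 cells lie in the lower parts.

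In the control library the cells with HMOX1 lay low in ferritin. They were 5 of the 241 cells lowest in ferritin (2.07%, 0.677 to 4.77) and 1 of the next 241. The third part had 0 of 241 cells, which allows a share of up to 1.24%, and the highest had 0 of 240, which allows up to 1.25%. With 6 such cells in all, no order can be read from the control library. Without SP11 cluster 5 the SP11 shares were 0.532%, 2.67%, 5.85% and 9.09% (5.39 to 14.2) from the lowest part to the highest. Without the shared barcodes they were 0.599% in the lowest part and 15.1% in the highest.

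The SP11 cells with an HMOX1 UMI also differed from the other SP11 cells in the remaining genes. The median number of thinned FTH1 UMIs was 24 in the 44 cells with HMOX1 (quartiles 14.2 and 55) and 8 in the 725 cells without it (quartiles 4 and 15). FTH1 was at 23 in cells with 1 HMOX1 UMI, 29 in cells with 2 to 4 and 60 in the 2 cells with 5 or more. Summed over cells, the cells with HMOX1 were 3.72-fold higher in FTH1 (3.55 to 3.90), 2.79-fold higher in SLC7A11 (1.87 to 4.05), 2.11-fold higher in NQO1 (1.38 to 3.12), 1.58-fold higher in FTL (1.54 to 1.63) and 1.57-fold higher in TXNRD1 (1.09 to 2.19). GCLM (0.833, 0.375 to 1.62), SRXN1 (1.27, 0.0298 to 8.44), TFRC (0.675, 0.320 to 1.26) and NFE2L2 (0.899, 0.637 to 1.24) had intervals that included 1. Summed monocyte or macrophage markers were at 4814 CPM in the cells with HMOX1 and 2995 CPM in those without, neutrophil or granulocyte precursor markers at 573 and 1147 CPM, T-lineage markers at 46.5 and 10.3 CPM, and erythroid markers at 5.17 and 5.33 CPM. In the 44 cells with HMOX1, 46.5 CPM stands for 9 UMIs and 5.17 CPM for 1 UMI. The T-lineage and erythroid levels there rest on those few counts. The part of the markers in these ratios was not tested.

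Part of that pattern came with a single cluster. Without SP11 cluster 5, 34 cells with HMOX1 remained, and their ratios to the other cells were 2.46 for FTH1 (2.30 to 2.63), 2.07 for SLC7A11 (1.20 to 3.37), 1.26 for FTL (1.21 to 1.30), 1.53 for TXNRD1 (1.00 to 2.25) and 1.35 for NQO1 (0.727 to 2.32). The interval for NQO1 then included 1. The cells within a library are not replicates, so these intervals describe the counting error of the cells that were captured.

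SP11 cluster 5 was a group of 20 cells (2.35% of the library, median 14393 UMIs) from clustering of the SP11 library alone. It was led by ATP6V0D2, SLC26A11, TDO2, MMP1, S100A12, C1QA, FABP4, FMN1, S100A9 and SLCO2B1, and it is described here by number, with no test, because its cells were grouped on the same counts. It held 82 of the 216 HMOX1 UMIs (38.0%), in 15 of its 20 cells. HMOX1 was at 294 CPM (234 to 365) in this cluster and 14.5 CPM in the rest of the library. FTH1 was at 26606 CPM (26004 to 27218) against 3057, and FTL at 49406 CPM (48584 to 50237) against 17614, so FTH1 made up 35.0% of its ferritin UMIs. SLC7A11 was at 326 CPM (263 to 400) against 61.7, NQO1 at 301 CPM (240 to 373) against 80.3, and TXNRD1 at 308 CPM (247 to 381) against 123.

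In the same 20 cells TFRC stood the other way, at 21.5 CPM (7.89 to 46.8, 6 UMIs) against 82.5 CPM in the rest. NFE2L2 was at 258 CPM against 224, GCLM at 89.6 CPM against 55.9, and SRXN1 at 28.7 CPM (12.4 to 56.5, 8 UMIs) against 5.21. The summed monocyte or macrophage markers were at 11862 CPM in cluster 5 and between 2460 and 3738 CPM in the other SP11 clusters, with S100A8 at 3236, CTSD at 2448, S100A9 at 2197 and LYZ at 1598 CPM. T-lineage markers summed to 71.7 CPM there, nearly all of it LAT and IL7R, against 7.86 to 12.6 CPM in the other clusters, and neutrophil or granulocyte precursor markers to 262 CPM against 925 to 1267 CPM. The part of these cells in the library values can be read from the ratios without them, which were 3.38 for HMOX1 and 1.76 for FTH1 on the log2 scale.

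**Figure D5:**
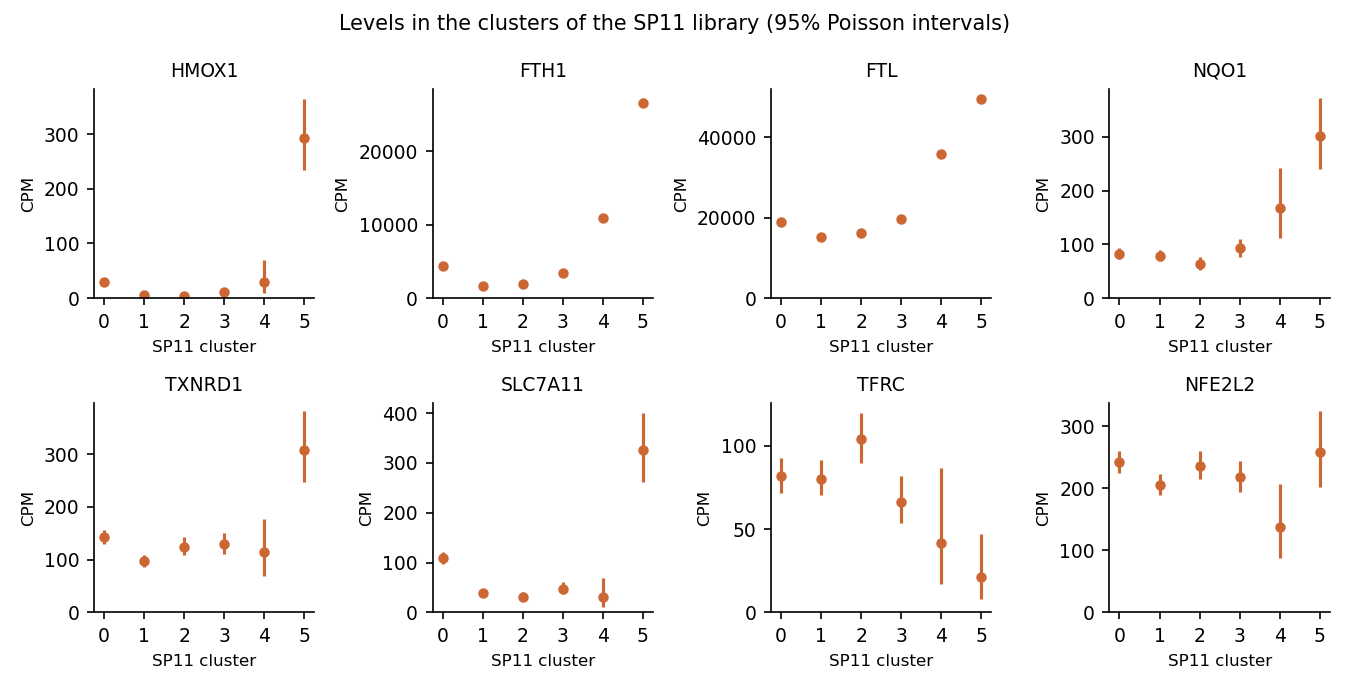
CPM of 8 of the genes in each of the 6 clusters of the SP11 library (horizontal axis, cluster number), with 95% Poisson intervals. Cluster 5, with 20 cells, holds the highest values of HMOX1, FTH1, FTL, NQO1, TXNRD1 and SLC7A11 and the lowest of TFRC, and cluster 4, the shallow cells, stands next in FTH1 and FTL.

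Among the larger SP11 clusters, HMOX1 was at 29.5 CPM (23.7 to 36.2) in cluster 0, 6.36 CPM (3.77 to 10.1) in cluster 1, 3.37 CPM (1.24 to 7.33) in cluster 2 and 10.3 CPM (5.65 to 17.3) in cluster 3. FTH1 was at 4374 CPM in cluster 0, 3433 in cluster 3, 1947 in cluster 2 and 1670 in cluster 1. Cluster 0, with 292 cells and 91 HMOX1 UMIs, was thus the other main place of HMOX1, and SLC7A11 was also highest there among these 4 clusters, at 109 CPM (97.8 to 121) against 31.4 to 47.2. Cluster 4 held 70 shallow cells with a median of 1826 UMIs. FTH1 was at 10969 CPM (10473 to 11483) and FTL at 35728 CPM (34827 to 36646) in them. HMOX1 was at 29.9 CPM there (9.72 to 69.9), on 5 UMIs. TFRC was at 41.9 CPM there (16.9 to 86.4, 7 UMIs), and this interval overlaps that of TFRC in cluster 5. NQO1 was above its control value in each SP11 cluster, between 62.9 and 301 CPM, while the control clusters ranged from 10.4 to 28.8 CPM. The 10.4 CPM (0.263 to 58.0) came from 1 UMI in control cluster 5, which held 76 shallow cells. The other control clusters lay between 21.6 and 28.8 CPM.

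Over the 769 thinned SP11 cells, FTH1 and FTL had a Pearson correlation of 0.62 (Spearman 0.58) of log UMIs per 10000, and over the 963 control cells one of 0.42 (0.40). HMOX1 had one of 0.29 with FTH1 in SP11 and 0.03 in control, and FTH1 with SLC7A11 one of 0.34 in SP11 and 0.10 in control. Without cluster 5 the SP11 values were 0.55 for FTH1 with FTL, 0.21 for HMOX1 with FTH1 and 0.29 for FTH1 with SLC7A11. These are correlations over cells of 1 library, which share that library and its depth, and the weak ones in such sparse counts are no finding. The genes most like HMOX1 by this measure, among 7711 genes found in at least 5% of the thinned SP11 cells, included MMP1 (0.31), FTH1 (0.29), CXCL8 (0.26) and S100A8 (0.26). Those most like FTH1 were FTL (0.62), S100A8 (0.46), CCL2 (0.42), MMP1 (0.42) and IFI30 (0.42). Both rankings include cluster 5 and were not repeated without it. MMP1 was among the leading genes of that cluster, and S100A8 was at 3236 CPM in it.

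The other genes of these pathways are given from lists that leave out the 10 genes, with NFE2L2 kept in the list of NRF2 control. Of 12 measured genes of NRF2 control, 4 were at least 1.5-fold higher in SP11 and 3 lower, with a median log2 ratio of 0.13. SQSTM1, the autophagy receptor that can hold KEAP1 away from NRF2, was at 94.5 CPM in control against 281 CPM in SP11 (1.57, 1.48 to 1.66), and MAFF, a small MAF partner, had a ratio of 0.72 (-0.04 to 1.46). KEAP1 was at 39.8 and 54.6 CPM (0.46) and BACH1 at 137 and 91.7 CPM (-0.58). MAFG, another small MAF partner, had the lowest ratio in the list (-1.35, -1.58 to -1.12), and BACH2 stood next to it (-1.18, -2.27 to -0.23).

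The counts of the lists are to be read beside all measured genes, of which 10.7% were at least 1.5-fold higher and 38.4% lower, with a median of -0.35. Of 22 further NRF2 targets that were measured, 4 were higher and 7 lower (median -0.11), led by SQSTM1 and OSGIN1 (1.26, 0.78 to 1.74), with EPHX1, a microsomal epoxide hydrolase, at the other end (-2.49, -3.25 to -1.81). Of 15 measured glutathione genes 2 were higher and 1 lower (median 0.25). GLRX2, a mitochondrial glutaredoxin, had a ratio of 0.75, GSTP1, a glutathione transferase, 0.74, GLRX5, a glutaredoxin of iron-sulfur cluster assembly, -0.38, and CTH, which makes cysteine, -1.99 (-2.58 to -1.45). Of 14 thioredoxin and peroxiredoxin genes 1 was higher and 2 lower (median 0.12). PRDX4 was at 0.74, TXN2 at 0.58, SESN1 at -0.88 and SESN2 at -1.13. Each of these medians lay above that of all measured genes, and none of the lists was tested.

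The median of heme synthesis and that of iron handling lay close to the -0.35 of all measured genes, and that of heme breakdown and transport lay above it. Of 11 measured genes of heme synthesis 1 was at least 1.5-fold higher and 3 lower (median -0.37), from SLC25A38, the mitochondrial glycine carrier (0.75), and UROD (0.42) to ABCB10 (-0.74) and PPOX (-0.84). Of 10 measured genes of heme breakdown and transport 0 were higher and 3 lower (median -0.11). HMOX2, the constitutive heme oxygenase, was at 47.9 CPM in control against 69.3 CPM in SP11 (0.53, 0.38 to 0.68), beside PGRMC1 (0.54), and FLVCR2 (-1.34) and HEBP2 (-0.96) stood at the other end. BLVRA and BLVRB, which reduce the biliverdin that heme oxygenase makes, had ratios of 0.03 and -0.26. Of 17 measured genes of iron uptake, storage and sensing 0 were higher and 6 lower (median -0.38), beside 10.7% and 38.4% of all measured genes. STEAP3, an iron reductase, had a ratio of 0.29, TFR2 one of -0.74 and SLC11A2, an iron transporter, one of -0.86. No measured gene of these heme and iron lists reached the ratio of HMOX1, FTH1 or NQO1, while SLC25A38 lay above FTL, and these differences were not tested. BLVRA, BLVRB, KEAP1 and BACH1 were picked for their roles after their values were known.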

How the data were processed

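The study placed 2 libraries labelled MOLT4 on the 10x Genomics platform, and the treatment given in the labels set the groups. For each library the authors deposited UMI counts, one value per gene and barcode, with no normalization. Cell Ranger 7.1.0 wrote them, per the file headers, on the GRCh38 (hg38) build that the submitters' processing notes give. No source used here says whether reads in introns were counted, the default of that version, and such reads would make a count depend on unspliced RNA too. Every column of values belonged to 1 of the 2 libraries.

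Barcodes with at least 200 genes and at most 20% mitochondrial UMIs were kept, 1053 of 1076 in control and 852 of 864 in SP11. The study retained fewer cells under the same stated limits, and names no further filter. Scrublet (scanpy 1.11.5) called 45 control and 21 SP11 barcodes as doublets, which were kept. UMIs of a gene were summed over cells and divided by all UMIs (CPM). Intervals are exact at 95%, from Clopper-Pearson limits on how a gene's UMIs divide between the libraries for a log2 ratio, Poisson limits for a CPM and binomial limits for cell shares. A count of 0 was given a limit of 3 counts. Thinning drew 4400 UMIs per cell without replacement and left out 90 control and 83 SP11 cells. Each library was clustered on its own with Seurat 5.3.0 under R 4.3.3, from 2000 variable features, 10 principal components and resolution 0.5. A cluster's leading genes are the 10 with the highest ratio of its CPM to that of the rest, among genes with 20 or more UMIs in it. Positions and intronic lengths were taken from GENCODE 44.

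The genes and lists were chosen with earlier results of these data known. Named beside the 10 genes were the 2 measured genes at each end of every list and the 5 genes most correlated with HMOX1 and with FTH1. A few genes that this rule takes are not reported here. Alternatives were TMM scaling from edgeR 4.0.16 and size factors from DESeq2 1.42.0, both on the deposited counts summed over the kept cells. Further ones were other totals, an equal weight for each cell, other cell filters and thinning depths, removal of doublet calls, of the highest cell and of SP11 cluster 5, and no minimum on UMIs. Removal of the shared barcodes, removal of the cells with HMOX1, subtraction of the median of genes of like intronic length, and the results by HMOX1 detection without cluster 5 were added once the data had been seen. The interval code was tested on simulated data.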

Additional observations from a re-analysis of the deposited data

How the results depend on the processing

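The log2 ratio of HMOX1 was 4.03, with a range of 3.38 to 4.39 over 14 alternatives, and 3.38 was the value without SP11 cluster 5. That of FTH1 was 2.06 and positive under all 15 alternatives. It was 2.40 with TMM factors, 2.42 with DESeq2 size factors, 2.002 with totals without mitochondrial genes, 2.10 with every cell weighted equally, 1.92 with a mitochondrial maximum of 10%, 2.02 without cells under 4400 UMIs, 1.76 without SP11 cluster 5, 2.09 without the highest cell of each library, 2.11 without the shared barcodes and 1.61 without the cells with an HMOX1 UMI. The number of genes at least 1.5-fold higher was 4 of 10, and 7 with TMM factors, with DESeq2 size factors and after the trend with intronic length was subtracted. It ranged from 3 to 5 elsewhere, was not counted without the cells with HMOX1, which removes HMOX1 itself, and the number at least 1.5-fold lower stayed at 0. The share of SP11 cells with HMOX1 at equal depth was 5.72%, with 3.64% at 3000 UMIs and 10.9% with no thinning. In the SP11 cells highest in ferritin it was 14.1%, with 9.05% at 3000 UMIs, 23.5% with no thinning and 9.09% without cluster 5. The cause of these shifts was not tested. The median mitochondrial share of UMIs was 8.94% in control cells and 5.51% in SP11 cells. The mitochondrial maximum of 10% left 687 of the 963 thinned control cells and 754 of the 769 thinned SP11 cells. FTL ranged from 0.45 to 0.93, NQO1 from 1.65 to 2.23, GCLM from 0.44 to 0.89, NFE2L2 from 0.55 to 1.44, SRXN1 from 0.12 to 0.66 and TFRC from 0.08 to 0.63, each above 0 under all 15 alternatives. SLC7A11 ranged from -0.18 to 0.62, below 0 in 3 of them, and TXNRD1 from -0.32 to 0.45, above 0 in 3. No paired analysis was possible because each group had 1 library, and no result comes from a test. For SRXN1, with 93 and 56 UMIs, the counting interval of the ratio included 0.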
